A study of Mus musculus with 27 samples.

Results

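The lysosomal genes described here are 41 of the 29872 genes in the deposited count matrix. They were taken by gene name, from a list drawn up with earlier results of these data known, and fall into 8 proteases of the lumen, 7 glycosidases, 3 lipid hydrolases, 3 carriers or activator proteins, 5 proteins of the lysosomal membrane, 3 transcription factors and 12 subunits of the vacuolar proton pump. All 41 passed the filter on low counts that left 14589 genes for testing. The samples were macrophages grown from mouse bone marrow for 5 days in medium with 10% L-cell conditioned medium, a source of the growth factor M-CSF, and then treated for 24 h with vehicle, with 10 ng/ml of the cytokine IL4, with 500 nM corticosterone, the natural glucocorticoid of mice, or with 100 nM dexamethasone, a synthetic one. The mice were males of 8 to 10 weeks on a C57BL/6 background. The knockout was LysM-Cre+/+; GRIP1fl/fl, in which a Cre recombinase driven by the myeloid lysozyme promoter removes a floxed part of Ncoa2, the gene of GRIP1, a coregulator of the glucocorticoid receptor. The control, called wild type here, was labelled GRIP1wt/wt with LysM-Cre+/+ in its genotype field and BL6 in its titles, so by the first label both genotypes carried the Cre. Each wild-type group had 3 libraries, the knockout IL4 group had 3, and the other knockout groups had 4, which makes 12 wild-type and 15 knockout libraries. Nothing in the labels ties a library to an animal, so the p-values measure the spread between libraries.

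Lysosomes are acidic organelles in which macrophages break down what they engulf and what autophagy delivers. Soluble hydrolases work in the lumen, heavily glycosylated membrane proteins line it, and the vacuolar ATPase, made of a membrane sector V0 and a cytosolic sector V1, pumps in the protons that the hydrolases need. Many of these genes share a promoter motif read by the transcription factors TFEB, TFE3 and MITF, and nutrient-sensing complexes on the lysosome hold these factors in the cytosol until they are needed.

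Library depth ran from 20162729 to 48023102 counts over genes. Levels are given as CPM (counts scaled to a common library size) with the sizes adjusted by edgeR's TMM factors, differences as log2 fold changes ± standard error from edgeR's quasi-likelihood test over all 27 libraries, and a call is an adjusted p (Benjamini-Hochberg over all genes tested) under 0.05. Ncoa2 read 55.7 to 93.4 CPM in the wild-type libraries and 16.1 to 26.0 in the knockout libraries, so every knockout library lay below every wild-type one. All 8 macrophage markers listed (among them Csf1r, Adgre1 and Cd68) were present at a summed 5484 to 6876 CPM. Of these Lyz2 was low in both genotypes, at 23.6 to 49.7 CPM in wild type and 20.1 to 50.8 CPM in knockout. Csf1r read 1818 to 2428 CPM. Some libraries outside the IL4 groups were high in Arg1, a gene induced by IL4: knockout vehicle 2 and 3 (117 and 78.4 CPM), wild-type dexamethasone 1 (67.1 CPM) and knockout dexamethasone 2 (68.0 CPM). The wild-type libraries also carried more stromal transcripts (5 genes summing to 148 to 768 CPM, against 9.97 to 41.2 in the knockout). Library 1 of each wild-type group was highest in these (Col1a1 at 283 to 357 CPM, against 64.6 to 148 in libraries 2 and 3). Neutrophil transcripts (8 genes) summed to 154 to 430 CPM in wild type and 93.5 to 231 in knockout. Most of the knockout sum was Mmp8 (82.9 to 221 CPM, against 58.5 to 147 in wild type). S100a8, S100a9, Ngp and Ltf were higher in every wild-type library than in any knockout library (S100a9 at 16.4 to 135 against 0.655 to 3.2 CPM). Camp, Elane and Mpo, at or below 10.5 CPM, overlapped. Where leaving out the libraries high in Arg1 ended a call of the 41 genes, the value without them is given. For genes outside the 41 no such value is given.

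The genes were abundant. Together they took 3.81% (3.62% to 3.99%) of the scaled counts in wild-type vehicle libraries. Per kilobase of annotated exon, the highest level in that group belonged to Psap (1719 CPM per kb), the precursor of the saposins that help degrade sphingolipids, followed by the aspartic protease Ctsd (1462) and the cysteine proteases Ctss (1179) and Ctsb (962). At the low end stood the acid sphingomyelinase Smpd1 (11.8 CPM per kb), the calcium channel Mcoln1 (11.2), and the transcription factors Tfe3 (19.9), Mitf (9.02) and Tfeb (8.00). Among the pump subunits, Atp6v0b (199 CPM per kb) and Atp6ap1 (183) led and Atp6v1h (23.0) was lowest.

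The motif read by TFEB and its relatives can be seen in the promoters of some members. RefSeq promoter sequences (GRCm38.p6) were at hand for 34 of the 41 genes. In the 250 bases before the start, TCACGTG or its reverse complement CACGTGA was found in 9 of these 34 genes (26.5%), against 3.58% of all 27025 genes in the same table. Its core CACGTG was found in 10 (29.4% against 6.86%), and the longer TCACGTGA, in which both strands match and overlap, in 5 (14.7% against 0.907%). One window from each of the 9 genes is shown, 5′ to 3′ along the gene's strand, with the matches in capitals, because the rule that chose the genes did not use them.
Lamp1 (chr8:13159079-13159160, plus strand): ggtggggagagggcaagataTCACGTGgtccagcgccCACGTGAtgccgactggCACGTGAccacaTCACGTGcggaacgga
Mcoln1 (chr8:3500427-3500500, plus strand): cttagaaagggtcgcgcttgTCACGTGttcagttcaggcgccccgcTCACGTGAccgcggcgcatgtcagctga
Ctsd (chr7:142387899-142387946, minus strand): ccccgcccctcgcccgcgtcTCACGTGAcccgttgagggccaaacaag
Ctsa (chr2:164833740-164833772, plus strand): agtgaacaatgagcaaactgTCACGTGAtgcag
Gaa (chr11:119267802-119267848, plus strand): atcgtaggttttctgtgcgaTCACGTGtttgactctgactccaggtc
Gla (chrX:134601173-134601253, minus strand): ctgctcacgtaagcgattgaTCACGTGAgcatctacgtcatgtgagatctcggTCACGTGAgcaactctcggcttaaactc
Glb1 (chr9:114401009-114401055, plus strand): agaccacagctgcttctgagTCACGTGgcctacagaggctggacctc
Atp6v0b (chr4:117887330-117887386, minus strand): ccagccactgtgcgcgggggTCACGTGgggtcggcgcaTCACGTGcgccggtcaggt
Atp6v1a (chr16:44139364-44139411, minus strand): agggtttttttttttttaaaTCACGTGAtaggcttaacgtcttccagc
In Lamp1, a major glycoprotein of the lysosomal membrane, and in Mcoln1, Gla and Atp6v0b the motif recurs within a single short stretch. Ctsd holds a further match in a window that is not shown. The glycosidases Gaa and Glb1 hold a single TCACGTG each in these windows. The match describes letters in a window and was not tested as a binding site.

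IL4 raised Atp6v0a1, the a1 subunit of the proton pump, by more than any other of the 41 genes in either genotype, and in wild type 6 further pump subunits rose with it. In wild-type cells 18 of the 41 genes were higher with IL4 (background 14.8% of genes tested) and 2 were lower (background 15.3%), with a median difference of 0.18 against -0.01 over all genes. In knockout cells 9 were higher (background 14.5%) and 2 lower (background 12.0%), with a median of 0.10 against 0.01. The 7 genes higher in both genotypes were Atp6v0a1, Mitf, Tfeb, Atp6v1b2, Npc1, Atp6v1a and Lipa, which are 7 of the 18 and 7 of the 9. How many of all genes tested were called in both genotypes was not counted, so this overlap has no background. Ctsc and Neu1 were lower in both. The heat map of treatment differences shows all 41 genes side by side.

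**Figure D1:**
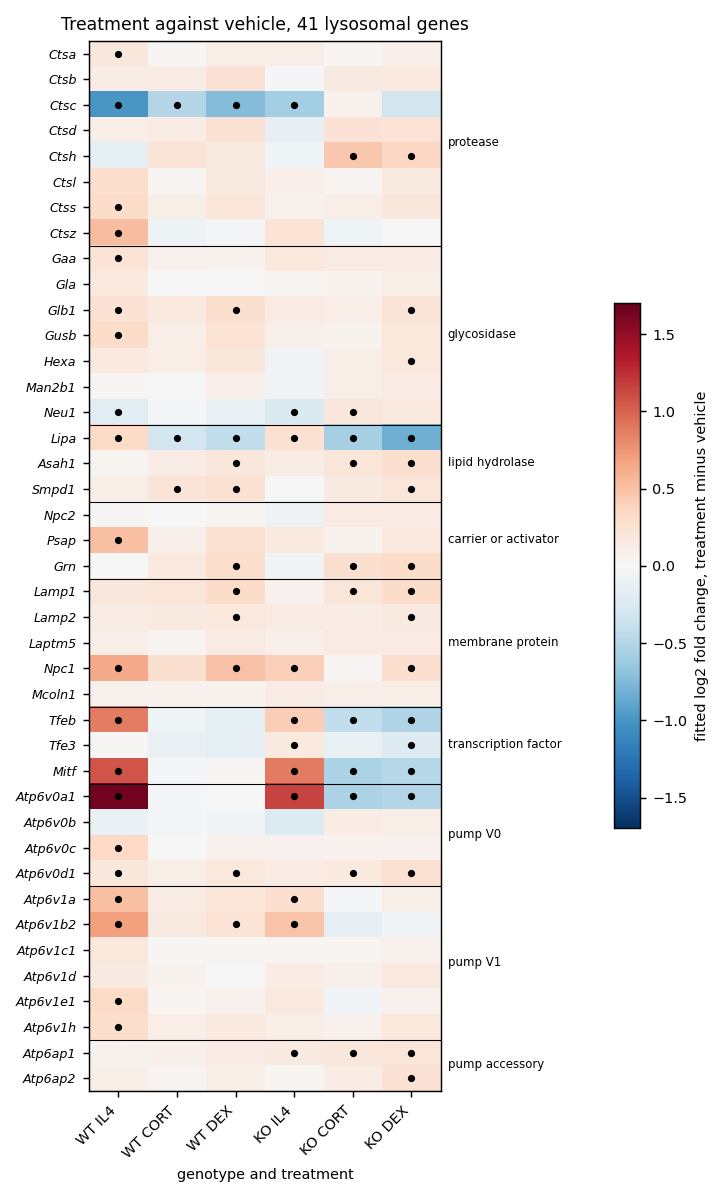
Fitted log2 fold change of each treatment against vehicle (colour) for the 41 genes (rows, ordered by role) in wild-type (WT) and GRIP1 knockout (KO) macrophages. Dots mark calls (adjusted p under 0.05), and Atp6v0a1 with IL4 is the darkest cell, at 1.65 in wild type and 1.15 in knockout, while Ctsc in wild type and Lipa under both glucocorticoids are blue.

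Atp6v0a1 encodes an a subunit of V0, the part of the pump that forms the proton path and steers it to a given membrane (chr11:101009452-101063719, plus strand, GRCm38). It read 416, 514 and 448 CPM in wild-type vehicle libraries and 1329.7, 1561 and 1423 CPM with IL4. The lowest IL4 library stood above the highest vehicle library by more than the whole spread within either group. The fitted difference was 1.65 ± 0.14 (adjusted p = 8.99e-09), a 3.13-fold rise. Knockout vehicle libraries read 516, 878, 743 and 581 CPM and knockout IL4 libraries 1469, 1539.7 and 1505, a difference of 1.15 ± 0.13 (adjusted p = 8.25e-07). The knockout IL4 values fell within the range of the wild-type IL4 values, while the knockout vehicle libraries were spread widely, with the highest pair being the ones high in Arg1. Without those the knockout difference was 1.44 (adjusted p = 2.6e-09).

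The other V0 members differed less. The rotor subunit Atp6v0c rose by 0.33 ± 0.12 (adjusted p = 0.0334) in wild type, from 218, 195 and 193 to 260.1, 259.9 and 243 CPM, and differed by 0.07 ± 0.11 in knockout without a call. Atp6v0d1, the widespread d subunit that joins V0 to V1, rose by 0.19 ± 0.059 (adjusted p = 0.0134) in wild type. The second rotor subunit Atp6v0b was not called in either genotype (-0.11 ± 0.12 and -0.23 ± 0.12), but with replicate numbers as a block it was lower in knockout, at -0.28 (adjusted p = 0.0229).

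In the V1 sector, which binds and splits ATP, 4 of 6 members rose in wild type. The catalytic subunit Atp6v1a read 765, 813 and 729 CPM with vehicle and 1078, 1144 and 1056 CPM with IL4, and its partner Atp6v1b2 read 747, 747 and 699 with vehicle and 1156, 1213 and 1182 with IL4. Neither pair of groups overlapped. The differences were 0.51 ± 0.072 (adjusted p = 7.92e-06) for Atp6v1a and 0.70 ± 0.077 (adjusted p = 2.28e-07) for Atp6v1b2. In knockout they were 0.28 ± 0.067 (adjusted p = 0.00362) and 0.49 ± 0.071 (adjusted p = 2e-05), where Atp6v1a lost its call without knockout IL4 library 2. The stalk subunit Atp6v1e1 rose by 0.32 ± 0.090 (adjusted p = 0.00772) and the regulatory subunit Atp6v1h by 0.30 ± 0.11 (adjusted p = 0.0317) in wild type, and neither was called in knockout. Atp6v1c1 and Atp6v1d were not called with IL4 in either genotype. The plot of pump subunits adds the subunits that are not among the 41.

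**Figure D2:**
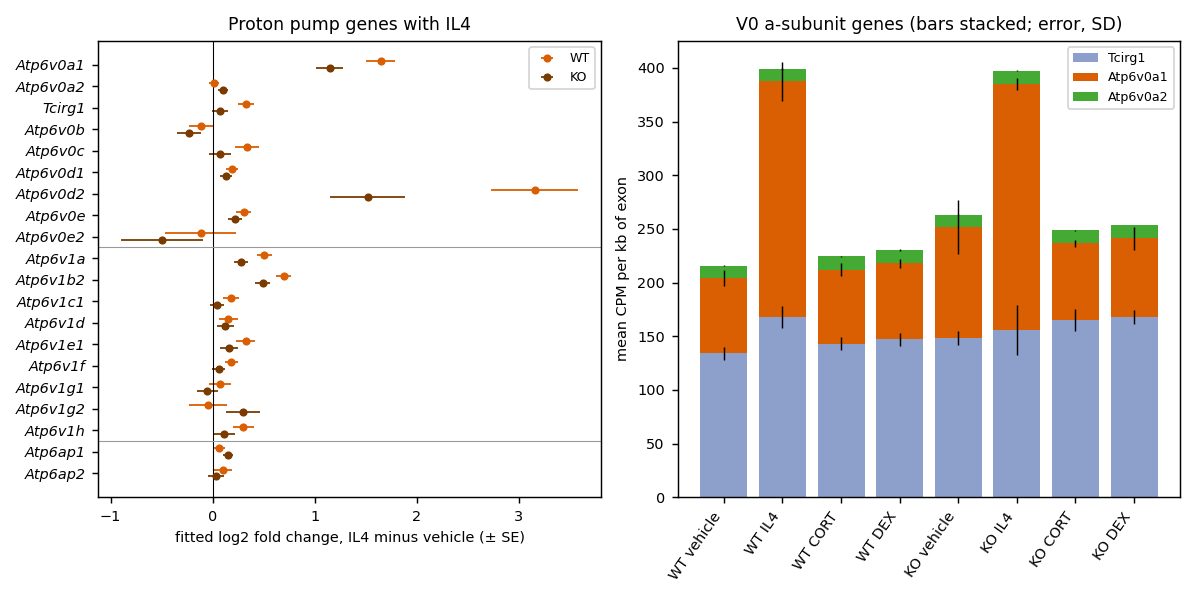
Left: fitted log2 fold change (± SE) of IL4 against vehicle for pump subunits in wild type (orange) and knockout (brown), with V0, V1 and accessory subunits separated by lines. Right: mean level of the 3 detected a-subunit genes per kilobase of exon, stacked, with SD bars, where the Atp6v0a1 part grows from 70.1 CPM per kb with vehicle to 219 with IL4 in wild type.

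IL4 changed which a subunit made up most of the a-subunit transcripts. The alternatives to Atp6v0a1 are Atp6v0a2, Tcirg1 (the a3 subunit, needed by osteoclasts) and Atp6v0a4, which read at or near 0 in these cells. Counted per kilobase of exon, Atp6v0a1 was 32.4% ± 2.44 (SD, n = 3) of the a-subunit transcripts in wild-type vehicle libraries, Tcirg1 62.1% ± 2.24 and Atp6v0a2 5.43% ± 0.241. With IL4 the shares were 54.9% ± 1.94 (SD, n = 3), 42.1% ± 1.84 and 2.96% ± 0.0945. The order of Atp6v0a1 and Tcirg1 was thus exchanged. In knockout Atp6v0a1 went from 39.0% ± 5.91 (SD, n = 4) to 57.9% ± 3.4 (SD, n = 3). Tcirg1 itself rose by 0.33 ± 0.080 (adjusted p = 0.00286) in wild type, and Atp6v0a2 did not pass the test (0.01 ± 0.051).

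A second exchangeable subunit, Atp6v0d2, known from osteoclasts and fusing macrophages, read 96.7, 94.8 and 49.7 CPM with vehicle and 771, 753 and 628 CPM with IL4 in wild type (3.16 ± 0.43, adjusted p = 7.96e-06). Its knockout vehicle libraries read 161, 426, 317 and 276 CPM, all above the wild-type vehicle libraries, and its knockout IL4 libraries 751, 746 and 1040.1 (1.52 ± 0.37, adjusted p = 0.00419). The 9 osteoclast and fusion markers listed, Atp6v0d2 included, summed to 216 to 312 CPM with vehicle and 858 to 1072 CPM with IL4 in wild type, and to 355 to 600 and 955 to 1285 CPM in knockout. Most of that rise was Atp6v0d2 itself. In wild type Acp5, Ctsk, Ocstamp and Dcstamp were also higher in every IL4 library than in any vehicle library. Nfatc1 read 57.7 to 73.2 CPM with vehicle and 63.2 to 68.1 with IL4, and Mmp9 read 9.6 to 28.8 and 8.57 to 23.1. Calcr and Oscar were at or below 0.342 CPM in these libraries. The part of these markers in the rise of the pump genes was not tested.

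The summed share of the 12 pump members went from 0.477% (0.449% to 0.498%) of scaled counts with vehicle to 0.682% (0.663% to 0.705%) with IL4 in wild type, with no overlap, and from 0.534% (0.504% to 0.602%) to 0.682% (0.62% to 0.737%) in knockout. In wild type the mean summed level of the 12 went from 4769 to 6825 CPM, and that of Atp6v0a1 within it from 459 to 1438 CPM. The 8 proteases went from 1.58% (1.49% to 1.68%) to 1.76% (1.65% to 1.83%) in wild type, where the ranges overlapped.

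**Figure D3:**
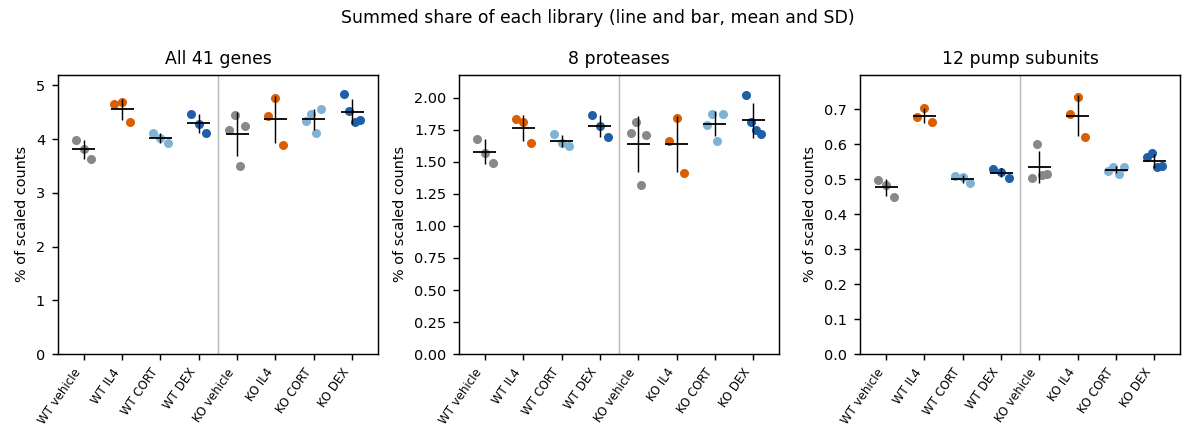
Summed share of scaled counts (%, mean and SD, 1 point a library) of all 41 genes, the 8 proteases and the 12 pump subunits in the 8 groups. The pump panel separates IL4 from every other group in both genotypes, while the protease panel does not, and 1 knockout vehicle library is the lowest in the first and second panels.

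Of the transcription factors of the pathway, Mitf and Tfeb rose with IL4 in both genotypes. Mitf (chr6:97807052-98021349, plus strand) read 50.4, 63.7 and 53.6 CPM with vehicle and 112, 126 and 114 with IL4 in wild type, and 63.9, 79.3, 80.2 and 70.1 with vehicle and 123, 129 and 156 with IL4 in knockout. The IL4 libraries were apart from the vehicle libraries in both genotypes. The differences were 1.07 ± 0.11 (adjusted p = 1.03e-07) and 0.89 ± 0.10 (adjusted p = 1.02e-06). Tfeb (chr17:47737030-47792419, plus strand), regarded as the master regulator of lysosome genes, read 45.7, 45.5 and 44.9 CPM with vehicle and 77.7, 86.2 and 84.3 CPM with IL4 in wild type, and 44.7, 61.0, 56.6 and 53.6 with vehicle and 79.6, 72.9 and 63.3 with IL4 in knockout. Its differences were 0.87 ± 0.096 (adjusted p = 2.27e-07) and 0.41 ± 0.088 (adjusted p = 0.00121). Tfe3 read 173, 188 and 192 with vehicle and 179, 192 and 192 CPM with IL4 in wild type, with full overlap (0.02 ± 0.062, not called), and 171, 169, 178 and 183 with vehicle and 184, 188 and 219 with IL4 in knockout (0.17 ± 0.058, adjusted p = 0.0352). The knockout call for Tfe3 was lost without knockout vehicle library 1, 2 or 3, without knockout IL4 library 4, and without the libraries high in Arg1 (0.14, adjusted p = 0.162). The fourth factor of the family, Tfec, not among the 41, rose by 1.55 ± 0.17 (adjusted p = 2.12e-07) in wild type and 1.06 ± 0.15 (adjusted p = 1.87e-05) in knockout.

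STAT6, the factor that IL4 activates, is known to read the motif TTC and GAA spaced by 4 bases. In the 250 bases before the start that motif was found in 1 of the 34 genes searched (2.94%), Tfeb, against 6.76% of all genes. The share in the members was thus below that of all genes, but it rests on 1 gene and the difference was not tested. The window of this only match is shown with the motif in capitals, and lies before one of the alternative starts of the gene. It was not tested as a binding site or for a part in the rise of Tfeb.
Tfeb (chr17:47785494-47785539, plus strand): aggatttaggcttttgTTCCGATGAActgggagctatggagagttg
The counts do not separate transcripts from the different starts of Tfeb.

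**Figure D4:**
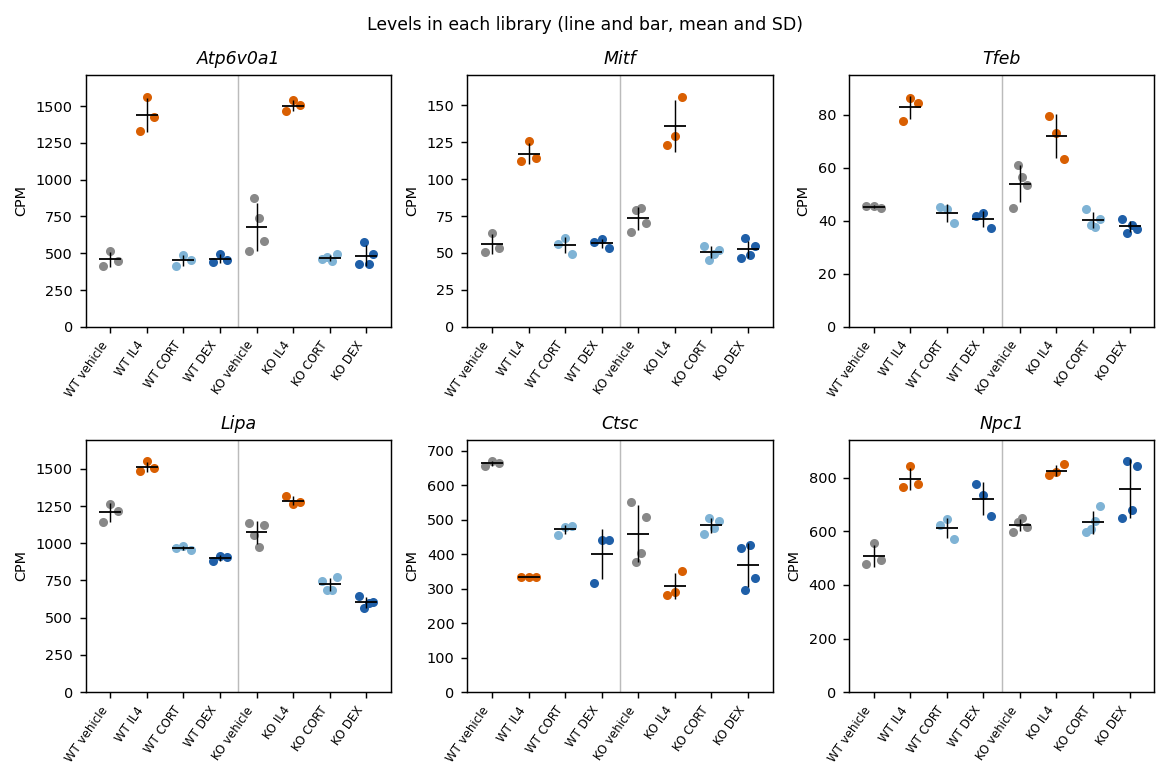
CPM of 6 genes in each of the 27 libraries (points), with the mean and SD of each group. Atp6v0a1, Mitf and Tfeb are high in the IL4 groups of both genotypes, Lipa is high with IL4 and low with either glucocorticoid, Ctsc is highest in the wild-type vehicle libraries, and Npc1 is high with IL4 and in part with dexamethasone.

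Of the 8 proteases, 3 rose and 1 fell in wild type. Ctsc, the dipeptidyl peptidase that activates serine proteases of leukocyte granules (chr7:88278085-88310888, plus strand), read 657, 671 and 663 CPM with vehicle and 333, 333 and 334 CPM with IL4. These were the tightest groups of the gene and lay far apart, at -0.99 ± 0.14 (adjusted p = 6.81e-06). In knockout Ctsc read 551, 376, 404 and 507 with vehicle and 283, 289.6 and 352 with IL4 (-0.58 ± 0.13, adjusted p = 0.00221). The carboxypeptidase Ctsz rose from 1255, 1111 and 1033 to 1684, 1659 and 1541 CPM in wild type (0.52 ± 0.11, adjusted p = 0.000819) and was called in knockout when replicate numbers entered as a block, at 0.18 (adjusted p = 0.0397), but not otherwise (0.23 ± 0.10). Ctss, which trims the invariant chain of MHC class II, rose by 0.32 ± 0.10 (adjusted p = 0.0184) and Ctsa, a carboxypeptidase that also shields partner glycosidases, by 0.19 ± 0.058 (adjusted p = 0.0128) in wild type. Ctsb, Ctsd and Ctsl, which carry most of the protease transcripts, were not called in either genotype.

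Of the 7 glycosidases, Gusb (0.31 ± 0.084, adjusted p = 0.00627), Glb1 (0.25 ± 0.067, adjusted p = 0.00583) and Gaa (0.24 ± 0.078, adjusted p = 0.0224), which cleave glucuronides, galactosides and glycogen, rose in wild type. The sialidase Neu1 read 192, 168 and 156 CPM with vehicle and 160.2, 149.5 and 140.3 with IL4 and was lower at -0.20 ± 0.074 (adjusted p = 0.0441), although the groups overlapped. In knockout Neu1 read 164, 167, 159.6 and 178 with vehicle and 142, 149 and 129.98 with IL4 without overlap (-0.25 ± 0.069, adjusted p = 0.0101). Hexa, Gla and Man2b1 were not called with IL4.

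In lipid handling, Lipa and Npc1 rose with IL4 in both genotypes. Lipa, the acid lipase that hydrolyses cholesteryl esters and triglycerides (chr19:34492318-34527474, minus strand), read 1141, 1261 and 1219 CPM with vehicle and 1484, 1549.98 and 1506 CPM with IL4 in wild type (0.33 ± 0.063, adjusted p = 0.000277), and 1139, 1058, 973 and 1124 with vehicle and 1320.4, 1265 and 1275 with IL4 in knockout (0.26 ± 0.059, adjusted p = 0.00187). All IL4 libraries stood above all vehicle libraries of their genotype. Without the libraries high in Arg1 the knockout difference was 0.17 (adjusted p = 0.051). Npc1, the membrane protein that exports the freed cholesterol, read 479, 557 and 493 with vehicle and 766, 844 and 776 CPM with IL4 in wild type (0.64 ± 0.092, adjusted p = 8.11e-06) and 599, 634, 649 and 618 with vehicle and 809, 821 and 850.4 with IL4 in knockout (0.40 ± 0.085, adjusted p = 0.0011). Its soluble partner Npc2 differed by 0.02 ± 0.074 and -0.08 ± 0.069, neither called. Psap rose by 0.51 ± 0.13 (adjusted p = 0.00447) in wild type. Asah1 and Smpd1, hydrolases of ceramide and sphingomyelin, and the membrane proteins Lamp1, Lamp2, Laptm5 and Mcoln1 were not called with IL4 in either genotype without the replicate block.

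Of the 20 wild-type calls with IL4, 12 held without each library in turn. Ctsa, Ctss, Gaa, Neu1, Atp6v0c, Atp6v0d1, Atp6v1e1 and Atp6v1h lost theirs without at least 1 of the 6 libraries (adjusted p 0.0501 to 0.281), and all of these but Neu1 without wild-type vehicle 3. Neu1 was at -0.11 (adjusted p = 0.281) without wild-type vehicle 1. Of the 11 knockout calls 7 held, and Neu1, Tfe3, Atp6v1a and Atp6ap1 were lost without at least 1 of knockout vehicle 1, 2 or 3 or IL4 2 or 4 (adjusted p 0.0581 to 0.317). Tfe3 was at 0.09 (adjusted p = 0.317) without knockout IL4 4. Atp6ap1 was at 0.09 (adjusted p = 0.238) without the libraries high in Arg1. When replicate numbers entered as a block, Ctsl (adjusted p = 0.00622), Gla (0.0221), Lamp1 (0.00421), Lamp2 (0.0424) and Atp6v1c1 (0.00795) were also called higher in wild type. In knockout the block added Ctsz and Atp6v0b, as given above, and Gaa (adjusted p = 0.00223), Lamp2 (0.0407) and Atp6v0d1 (0.046) as higher.

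Other genes of the pathway moved with IL4 as well. Of 104 such genes listed 99 were tested. In wild type 38 were higher (background 14.8% of genes tested) and 7 lower (background 15.3%). In knockout 26 were higher (background 14.5%) and 6 lower (background 12.0%). The wild-type backgrounds also apply to the counts by list that follow. Among other membrane proteins, 10 of 22 rose and 3 fell in wild type. The calcium channel Tpcn2 rose by 0.93 ± 0.088 (adjusted p = 2.95e-08) and the sialic acid exporter Slc17a5 by 0.61 ± 0.063 (adjusted p = 9.83e-08), while the divalent metal transporter Slc11a1 fell, at -0.83 ± 0.10 (adjusted p = 1.08e-06). Of 9 other proteases 6 rose and none fell, among them Prcp (0.60 ± 0.056, adjusted p = 3.03e-08) and Tpp1 (0.47 ± 0.082, adjusted p = 0.000104). Of 8 other lipid and phosphate hydrolases 5 rose, with Naaa at 0.76 ± 0.14 (adjusted p = 0.000229) and the activator Gm2a at 0.50 ± 0.082 (adjusted p = 4.57e-05). In the group that sorts enzymes to the lysosome 4 of 14 rose and 2 fell.

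Dexamethasone raised the membrane protein Lamp1 and the ceramide hydrolase Asah1 in both genotypes, and both glucocorticoids lowered Lipa. In wild-type cells corticosterone raised 1 of the 41 genes (background 3.48%) and lowered 2 (background 2.46%), with a median of 0.07 against 0.01 over all genes. Dexamethasone raised 9 (background 7.66%) and lowered 2 (background 6.03%), with a median of 0.14 against 0.01. In knockout cells corticosterone raised 7 (background 6.01%) and lowered 4 (background 6.07%), and dexamethasone raised 12 (background 9.10%) and lowered 5 (background 9.29%), with medians of 0.10 and 0.16 against -0.00 and -0.00. When replicate numbers entered as a block, which pairs these libraries except for dexamethasone in knockout, wild type had 7 calls for corticosterone and 18 for dexamethasone, and knockout had 17 for corticosterone. Over all comparisons of the members the block added 69 calls and ended 1. The share of all genes called with the block is not given, so these counts have no background beside them. Both treatments of a genotype share their vehicle libraries, and the doses differ, so their values are given side by side.

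Lipa was lower with both glucocorticoids in both genotypes. It read 966, 981 and 958 CPM with corticosterone and 879, 913 and 908 CPM with dexamethasone in wild type, below all the vehicle libraries given above. The differences were -0.32 ± 0.063 (adjusted p = 0.00223) and -0.42 ± 0.063 (adjusted p = 3.4e-05). In knockout it read 746, 688, 687 and 776 CPM with corticosterone and 648, 563, 596 and 602 CPM with dexamethasone, at -0.57 ± 0.055 (adjusted p = 1.37e-07) and -0.83 ± 0.055 (adjusted p = 6.72e-11). Those dexamethasone libraries held the lowest Lipa levels of the series, 0.56 times the fitted vehicle level. Fkbp5, a standard target of the glucocorticoid receptor, read 499 to 948 CPM in the glucocorticoid-treated wild-type libraries and 470.3 to 792 CPM in the treated knockout libraries, against 49.0 to 74.1 CPM with vehicle or IL4.

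Dexamethasone raised 8 members in both genotypes, which are 8 of the 9 and 8 of the 12. For this overlap, too, the share of all genes was not counted. These were Npc1, Lamp1, Lamp2, Grn, Asah1, Smpd1, Glb1 and Atp6v0d1. The knockout call of 4 of them was lost without the libraries high in Arg1: Npc1, at 0.25 (adjusted p = 0.113), Smpd1, at 0.13 (adjusted p = 0.257), Lamp2, at 0.09 (adjusted p = 0.367), and Glb1, at 0.21 (adjusted p = 0.0553). In wild type, that of Atp6v0d1 was lost without the library high in Arg1, at 0.16 (adjusted p = 0.0921). Npc1 read 775, 736 and 657 CPM in wild type (0.50 ± 0.092, adjusted p = 0.000381) and 652, 863, 682 and 843 in knockout (0.28 ± 0.079, adjusted p = 0.0134), where libraries 2 and 4 lay well above the vehicle libraries and libraries 1 and 3 just above them. In wild type Lamp1 read 1806, 1740.01 and 1692 CPM with vehicle and 2310.2, 2134 and 2089 CPM with dexamethasone, without overlap, and corticosterone gave 2086, 1949.9 and 1978 CPM. The dexamethasone difference was 0.32 ± 0.074 (adjusted p = 0.00404) there and 0.31 ± 0.064 (adjusted p = 0.000987) in knockout. Grn, the precursor of granulins that supports hydrolase function, read 2218, 2211 and 2233 CPM with vehicle and 2710.3, 2753 and 2696 CPM with dexamethasone in wild type, without overlap (0.29 ± 0.071, adjusted p = 0.00585), and differed by 0.32 ± 0.061 (adjusted p = 0.000573) in knockout. Smpd1 was called higher with corticosterone in wild type too (0.23 ± 0.063, adjusted p = 0.0302), though not without the wild-type libraries numbered 1 (0.25, adjusted p = 0.0878). Asah1 differed by 0.19 ± 0.056 (adjusted p = 0.0244) and 0.27 ± 0.048 (adjusted p = 0.000277) with dexamethasone.

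Ctsc fell with both glucocorticoids in wild type, to 456, 478 and 481 CPM with corticosterone (-0.49 ± 0.14, adjusted p = 0.0338) and 316, 442 and 441 CPM with dexamethasone (-0.73 ± 0.14, adjusted p = 0.000641), all below the vehicle libraries. In knockout its levels, 457, 506, 477 and 497 with corticosterone and 419, 296, 428 and 331 CPM with dexamethasone, overlapped those of vehicle and were not called (0.08 ± 0.12 and -0.32 ± 0.12). Leaving out any 1 of the 6 wild-type libraries ended the corticosterone call. Ctsh, an aminopeptidase, read 306, 279.6, 259 and 332 CPM with vehicle in knockout, where corticosterone gave 403, 414, 377 and 416 CPM and dexamethasone 424, 317, 394 and 361 CPM. With both treatments it was called higher in knockout (0.45 ± 0.082, adjusted p = 0.000427 and 0.35 ± 0.082, adjusted p = 0.00345) and not in wild type (0.22 ± 0.094 and 0.15 ± 0.094). The interaction of genotype and treatment was not called for Ctsc or Ctsh under either compound.

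In knockout Mitf, Tfeb and Atp6v0a1 were lower with both glucocorticoids and Tfe3 with dexamethasone. Mitf read 54.7, 45.4, 49.3 and 52.3 CPM with corticosterone and 46.8, 60.0, 48.5 and 54.4 with dexamethasone (-0.54 ± 0.096, adjusted p = 0.000378 and -0.49 ± 0.096, adjusted p = 0.000702). Tfeb read 44.3, 38.6, 37.8 and 40.8 with corticosterone and 40.6, 35.4, 38.4 and 36.9 CPM with dexamethasone (-0.42 ± 0.083, adjusted p = 0.00116 and -0.51 ± 0.083, adjusted p = 7.83e-05), and Tfe3 read 163, 162, 155 and 167 with corticosterone and 142, 149.6, 156 and 156 CPM with dexamethasone (corticosterone not called, dexamethasone at -0.22 ± 0.054, adjusted p = 0.00577). Atp6v0a1 read 458, 475, 446 and 495 with corticosterone and 429, 578, 428 and 497 CPM with dexamethasone (-0.54 ± 0.12, adjusted p = 0.00355 and -0.49 ± 0.12, adjusted p = 0.00464). In wild type, with all libraries and no block, none of the 4 was called, and for example Atp6v0a1 read 415, 490.02 and 452 CPM with corticosterone and Mitf 56.4, 60.3 and 49.5. With replicate numbers as a block Tfe3 was lower with dexamethasone in wild type, at -0.16 (adjusted p = 0.0155), and with corticosterone in knockout, at -0.12 (adjusted p = 0.0409). These knockout differences share the vehicle libraries that are spread widely. Without the libraries high in Arg1, Atp6v0a1 differed by -0.24 (adjusted p = 0.14) with corticosterone and -0.29 (adjusted p = 0.0566) with dexamethasone, Tfeb by -0.30 (adjusted p = 0.069) and -0.36 (adjusted p = 0.023), and Mitf by -0.43 (adjusted p = 0.0168) and -0.43 (adjusted p = 0.0137). The plot of Atp6v0a1 against Arg1 shows the libraries concerned.

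**Figure D5:**
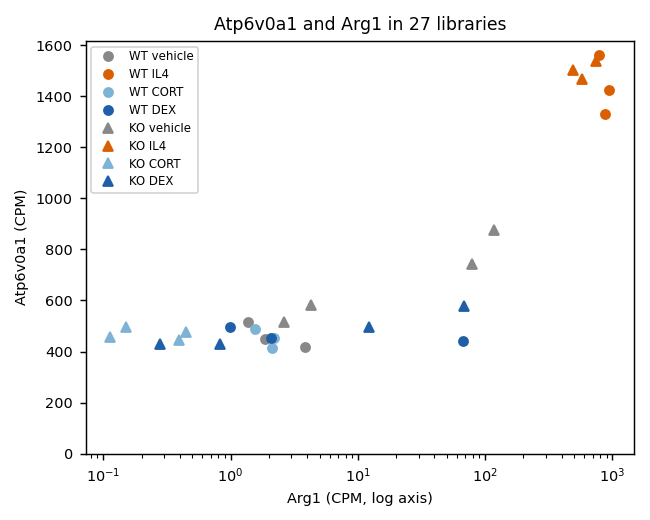
CPM of Atp6v0a1 against CPM of Arg1 (log axis) in the 27 libraries, with colour for treatment and shape for genotype. The knockout vehicle libraries with Arg1 at 117 and 78.4 CPM have Atp6v0a1 at 878 and 743 CPM, between the IL4 libraries and the rest, while the wild-type dexamethasone library at 67.1 CPM has 443.

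Leaving out the libraries high in Arg1 lowered the number of knockout calls from 11 to 3 with corticosterone (Ctsh, Lipa and Mitf) and from 17 to 11 with dexamethasone, with fewer vehicle libraries in the fit. Besides the genes already given, the corticosterone difference was then 0.15 (adjusted p = 0.404) for Neu1, 0.16 (adjusted p = 0.107) for Asah1, 0.20 (adjusted p = 0.118) for Grn, 0.13 (adjusted p = 0.283) for Lamp1, 0.18 (adjusted p = 0.0818) for Atp6v0d1 and 0.13 (adjusted p = 0.164) for Atp6ap1. The dexamethasone difference was 0.15 (adjusted p = 0.273) for Hexa and 0.28 (adjusted p = 0.0704) for Atp6ap2 in knockout, and 0.20 (adjusted p = 0.0566) for Atp6v1b2 in wild type. Of the wild-type dexamethasone calls, Ctsc, Lipa, Grn, Lamp1 and Npc1 held without each library in turn, although Grn was lost when all the wild-type libraries numbered 1 were left out (0.29, adjusted p = 0.0569). Glb1, Asah1, Smpd1, Lamp2, Atp6v0d1 and Atp6v1b2 did not (adjusted p 0.0514 to 0.191 when lost), and wild-type dexamethasone 3 ended each of these calls. In knockout 11 of 17 dexamethasone calls held, and Glb1, Hexa, Smpd1, Lamp2, Npc1 and Atp6ap2 were lost without at least 1 library other than knockout vehicle 4 (adjusted p 0.0575 to 0.215). With corticosterone in knockout 7 of 11 held, and Neu1, Lamp1, Atp6v0d1 and Atp6ap1 were lost without at least 1 library (adjusted p 0.0547 to 0.173), which for every one of them included corticosterone 4. Lamp1 was at 0.13 (adjusted p = 0.173) without knockout vehicle 3.

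Beyond the 41, glucocorticoids raised the enzyme Gnptab, which builds the mannose 6-phosphate tag that sends hydrolases to the lysosome. In wild type it read 157, 179 and 152 CPM with vehicle, and corticosterone gave 276, 279 and 236 CPM while dexamethasone gave 278, 322 and 296 CPM, without overlap. It rose by 0.70 ± 0.099 (adjusted p = 4.83e-05) and 0.88 ± 0.099 (adjusted p = 7.4e-07), and by 0.57 ± 0.086 (adjusted p = 6.71e-05) and 0.66 ± 0.086 (adjusted p = 3.95e-06) in knockout. The asparaginyl endopeptidase Lgmn rose by 0.42 ± 0.070 (adjusted p = 0.000324) and 0.59 ± 0.070 (adjusted p = 1.59e-06) in wild type, and the amino acid transporter Slc36a1 by 0.38 ± 0.052 (adjusted p = 2.96e-05) and 0.52 ± 0.052 (adjusted p = 1.03e-07). Sgsh rose with dexamethasone (0.45 ± 0.11, adjusted p = 0.00488) and fell with IL4 (-0.54 ± 0.11, adjusted p = 0.000331). Of the 99 tested, 7 were higher (background 3.48%) and 1 lower (background 2.46%) with corticosterone in wild type. With dexamethasone 19 were higher (background 7.66%) and 2 lower (background 6.03%). In knockout corticosterone gave 16 higher (background 6.01%) and 4 lower (background 6.07%), and dexamethasone 26 (background 9.10%) and 6 (background 9.29%). Atp6v0d2 was lower with corticosterone in knockout (-1.65 ± 0.35, adjusted p = 0.003), against the vehicle libraries that were high in it.

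The direct contrasts between treatments compared the agents with each other. IL4 against dexamethasone in wild type had 9 members higher (background 15.0%) and 2 lower (background 16.7%), and IL4 against corticosterone 12 higher (background 14.8%) and 2 lower (background 16.9%). With the replicate block 18 and 24 members were called, again without the share of all genes called in that fit. Lipa stood at 0.75 ± 0.063 (adjusted p = 2.61e-09) and 0.64 ± 0.063 (adjusted p = 3.28e-08) in these contrasts, Atp6v0a1 at 1.63 ± 0.14 (adjusted p = 4.4e-09) and 1.67 ± 0.14 (adjusted p = 4.37e-09), and Tfeb at 1.03 ± 0.096 (adjusted p = 1.33e-08) and 0.95 ± 0.096 (adjusted p = 5.12e-08). Grn was lower with IL4 than with dexamethasone (-0.28 ± 0.071, adjusted p = 0.00337), and Ctsh was lower with IL4 than with either (-0.32 ± 0.094, adjusted p = 0.01 and -0.39 ± 0.094, adjusted p = 0.00255), the first not without wild-type IL4 3 or dexamethasone 2. Tfe3 was higher with IL4 than with dexamethasone (0.18, adjusted p = 0.0263). Without the libraries high in Arg1 that difference was 0.17 (adjusted p = 0.0763). Dexamethasone at 100 nM against corticosterone at 500 nM called 0 members in wild type by edgeR and by DESeq2 (background 0.185%), with 1 at an unadjusted p under 0.05. In knockout it called Lipa alone, lower with dexamethasone (-0.27 ± 0.055, adjusted p = 0.0244, background 0.144%). Leaving out knockout corticosterone 1, 2 or 4 or dexamethasone 2, 3 or 4 ended that call (adjusted p 0.0549 to 0.15), and with the replicate block Npc1 was called as well (adjusted p = 0.0394). In wild type Lipa differed by -0.11 ± 0.063 between these exposures, with a 95% interval of -0.24 to 0.03.

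With GRIP1 removed, transcripts of some hydrolases were modestly higher and Lipa was lower. With vehicle 9 of the 41 were higher in knockout (background 8.47%) and 2 lower (background 10.3%), with a median of 0.12 against 0.02 over all genes. With corticosterone 8 were higher (background 5.46%) and 1 lower (background 8.95%), with dexamethasone 10 (background 6.70%) and 1 (background 10.5%), and with IL4 1 (background 5.76%) and 3 (background 6.59%). The medians were 0.13, 0.12 and 0.02. Stromal transcripts were higher and neutrophil transcripts mostly higher in the wild-type libraries throughout, as given above. Their part in these differences was not tested, and in bulk RNA fewer cells of a type and less RNA per cell cannot be told apart.

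Ctss and Hexa were higher in knockout in 3 of the 4 conditions. Ctss read 1699.8, 1589.7 and 1513 CPM in wild type and 2125, 2418, 1685 and 2239 in knockout with vehicle, 1694, 1709 and 1739 in wild type and 2338, 2357, 2121 and 2344 in knockout with corticosterone, and 1875, 1841 and 1841 in wild type and 2815, 2343, 2291 and 2221 in knockout with dexamethasone. Only the lowest knockout vehicle library reached down to the wild-type range. The differences were 0.40 ± 0.095 (adjusted p = 0.00349), 0.42 ± 0.095 (adjusted p = 0.00342) and 0.38 ± 0.095 (adjusted p = 0.00588), and with IL4 0.16 ± 0.10 without a call. Hexa, the alpha subunit of the hexosaminidase that degrades gangliosides, read 857, 828 and 783 in wild type and 1062, 1133, 937 and 1159 CPM in knockout with vehicle, 896, 897 and 882 in wild type and 1142, 1147, 1114 and 1190.1 in knockout with corticosterone, and 946, 960.4 and 907 in wild type and 1311, 1162, 1179.6 and 1215 in knockout with dexamethasone, with no overlap in any of these. Its differences were 0.38 ± 0.070 (adjusted p = 0.000362), 0.36 ± 0.070 (adjusted p = 0.000759) and 0.38 ± 0.070 (adjusted p = 0.000499), and 0.16 ± 0.074 with IL4. Gusb was higher in the same conditions (0.30 ± 0.079, adjusted p = 0.00765, 0.26 ± 0.079, adjusted p = 0.0263 and 0.26 ± 0.079, adjusted p = 0.025). It read 923, 905 and 854 CPM in wild type and 1061, 1209, 1041 and 1099.6 in knockout with vehicle.

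Lipa went the other way. The difference of knockout minus wild type was -0.17 ± 0.059 (adjusted p = 0.0454) with vehicle, -0.23 ± 0.063 (adjusted p = 0.0163) with IL4, -0.42 ± 0.059 (adjusted p = 2.98e-05) with corticosterone and -0.58 ± 0.059 (adjusted p = 2.55e-07) with dexamethasone. With vehicle the highest knockout value, 1139 CPM, lay just under the lowest wild-type value, 1141 CPM, and without the libraries high in Arg1 the difference was -0.10 (adjusted p = 0.372). With dexamethasone all knockout libraries were at or below 648 CPM and all wild-type libraries at or above 879 CPM. Ctsc was lower in knockout with vehicle (-0.53 ± 0.13, adjusted p = 0.00459), when wild-type levels were highest, and at -0.33 (adjusted p = 0.0223) without the libraries high in Arg1. It was not called under the treatments.

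Further hydrolases and carriers were called between the genotypes. Ctsz was higher in knockout with corticosterone (1113, 1054 and 1027 against 1299, 1419, 1229 and 1359 CPM, 0.32 ± 0.11, adjusted p = 0.0441) and dexamethasone (0.31 ± 0.11, adjusted p = 0.0405). Ctsa was higher with vehicle (0.16 ± 0.054, adjusted p = 0.0333) and corticosterone (0.18 ± 0.054, adjusted p = 0.0253). Npc2 was higher with corticosterone (861, 849.5 and 885 against 1025, 1044, 956 and 1070.1 CPM, 0.24 ± 0.069, adjusted p = 0.019) and dexamethasone (0.21 ± 0.069, adjusted p = 0.0342), and Laptm5, a membrane protein that limits antigen receptor signals, with corticosterone (0.23 ± 0.064, adjusted p = 0.0173). Neu1 was higher with dexamethasone (163, 166 and 148 against 202, 177, 185 and 184 CPM, 0.23 ± 0.069, adjusted p = 0.021). With vehicle, Smpd1 (37.5, 39.0 and 41.2 against 45.7, 41.5, 45.3 and 48.7 CPM, 0.21 ± 0.059, adjusted p = 0.0139), Npc1 (0.29 ± 0.086, adjusted p = 0.0174) and Glb1 (0.18 ± 0.063, adjusted p = 0.0497) were higher.

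Among pump subunits and regulators the accessory protein Atp6ap1 was higher in knockout under each of the 3 treatments. It read 587, 592 and 585 CPM in wild type and 656, 695, 639 and 706 in knockout with corticosterone (0.20 ± 0.048, adjusted p = 0.00655), and differed by 0.18 ± 0.052 (adjusted p = 0.0222) with IL4 and 0.17 ± 0.048 (adjusted p = 0.0151) with dexamethasone. Atp6ap2 (0.26 ± 0.081, adjusted p = 0.0262), Atp6v1d (0.26 ± 0.085, adjusted p = 0.0345) and Atp6v0d1 (0.17 ± 0.055, adjusted p = 0.0344) were higher with dexamethasone. Atp6v0a1 was higher in knockout with vehicle (0.57 ± 0.13, adjusted p = 0.00312), as was Mitf (0.39 ± 0.10, adjusted p = 0.00878), from the same knockout vehicle libraries as above. Without the libraries high in Arg1 these differences were 0.25 (adjusted p = 0.0975) and 0.26 (adjusted p = 0.157). With IL4, Ctsl was lower in knockout (2277, 2142 and 1876 against 1556, 1787 and 1165 CPM, -0.48 ± 0.12, adjusted p = 0.00994), as was Atp6v1h (293, 274 and 262 against 231, 252 and 169 CPM, -0.35 ± 0.11, adjusted p = 0.0312), which without knockout IL4 4 was at -0.19 (adjusted p = 0.217). Knockout IL4 library 4 was the lowest of its group in both genes and in Atp6v0b, where it read 232 CPM against 377 and 406.

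Ctss, Hexa and Lipa held their genotype calls under corticosterone and dexamethasone without each library in turn, as did Ctsc, Ctss, Gusb, Hexa and Atp6v0a1 with vehicle and Atp6ap1 with corticosterone. Ctsa, Glb1, Lipa, Smpd1, Npc1 and Mitf with vehicle were lost without at least 1 of the 7 libraries (adjusted p 0.0504 to 0.203), and without the libraries high in Arg1 Gusb was at 0.27 (adjusted p = 0.0687), Npc1 at 0.25 (adjusted p = 0.102) and Glb1 at 0.21 (adjusted p = 0.0546). Each IL4 call, for Ctsl, Lipa, Atp6v1h and Atp6ap1, was lost without knockout IL4 4 among others (adjusted p 0.0516 to 0.217). With corticosterone Ctsa, Ctsz, Gusb, Npc2 and Laptm5 were each lost without wild-type corticosterone 1, knockout corticosterone 2 or knockout corticosterone 4 (adjusted p 0.0525 to 0.133 over all libraries whose loss ended a call), and Atp6ap1 without all the wild-type libraries numbered 1 (0.19, adjusted p = 0.0507). With dexamethasone Ctsz, Gusb, Neu1, Npc2, Atp6v0d1, Atp6v1d, Atp6ap1 and Atp6ap2 were lost without at least 1 of the 7 libraries (adjusted p 0.0508 to 0.189). Without the libraries high in Arg1 the dexamethasone values were 0.27 (adjusted p = 0.0763) for Gusb, 0.28 (adjusted p = 0.0522) for Neu1, 0.15 (adjusted p = 0.134) for Atp6v0d1, 0.16 (adjusted p = 0.0752) for Atp6ap1 and 0.29 (adjusted p = 0.0677) for Atp6ap2. Of the other pathway genes, 29 of 99 were higher (background 8.47%) and 2 lower (background 10.3%) in knockout with vehicle. With dexamethasone 24 were higher (background 6.70%) and 4 lower (background 10.5%). Naaa (0.99 ± 0.14, adjusted p = 1.98e-05), Gm2a (0.64 ± 0.078, adjusted p = 3.8e-06) and Naglu (0.53 ± 0.095, adjusted p = 0.000285) were among the higher ones with vehicle, and Slc11a1 (-0.52 ± 0.094, adjusted p = 0.000322) was lower. Values of these other genes without the libraries high in Arg1 are not given.

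The treatment responses themselves were compared between genotypes by the interaction term, the knockout response minus the wild-type response. For IL4, 0 members were called by edgeR and by DESeq2 (background 0.0274%), with 5 at an unadjusted p under 0.05. The lowest adjusted p was that of Tfeb, at -0.45 ± 0.13 (adjusted p = 0.244), and -0.34 (adjusted p = 0.857) without the libraries high in Arg1. For Atp6v0a1 the interaction was -0.50 ± 0.19, with an unadjusted 95% interval (t, 19 degrees of freedom) of -0.90 to -0.10, and without those libraries it was -0.22 (adjusted p = 0.937). For corticosterone 0 were called by either tool (background 0.0206%), with 7 at an unadjusted p under 0.05, and Mitf came closest at -0.53 ± 0.15 (adjusted p = 0.222), and at -0.40 (adjusted p = 0.943) without those libraries. For dexamethasone 1 was called, Lipa (background 0.137%), whose response in knockout was more negative, at -0.41 ± 0.083 (adjusted p = 0.0355). Leaving out wild-type vehicle 1 or 3, knockout vehicle 1, 2 or 4, any wild-type dexamethasone library, or knockout dexamethasone 2, 3 or 4 ended that call (adjusted p 0.0584 to 0.145). Without the libraries high in Arg1 it was -0.47 (adjusted p = 0.0474).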

How the data were processed

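RNA was sequenced from poly(A)-selected libraries in 50 bp paired-end reads. The authors deposited raw counts per gene, and per the submitters' processing notes they used fastp 0.23.2, STAR 2.7.0, featureCounts, edgeR 3.38.4 and the mm10 build. Strand setting, duplicate removal and annotation are not given in the sources used here, so reads of overlapping genes may be shared.

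From the counts, genes passing filterByExpr (minimum count 10; 14589 of 29872) were scaled by TMM and fitted with edgeR 4.0.16 (quasi-likelihood, R 4.3.3, 8 group means, 27 libraries, 19 residual degrees of freedom). Contrasts were called at an adjusted p (Benjamini-Hochberg over all genes tested) under 0.05. For some of the comparisons the procedure was run on simulated data, with an outcome that is not given here. The simulated libraries were independent, without the shared deviations of same-numbered libraries described below. Total counts of 20162729 to 48023102 per library set the precision. Replicate pairs differed by a chi-square of 5.71 to 45.2 per gene over 33 pairs, so none was treated as 1 library. Each ± after a log2 value is a standard error, and each ± after a share is an SD. Gene coordinates and exon lengths are from the GRCm38 annotation.

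The 41 genes and the lists of other genes were chosen with earlier results of these data known. Values in every library are printed for members called with an absolute log2 fold change of at least 0.58 against vehicle, for those called between genotypes or in an interaction, and for the transcription factors, with ranges or fitted values for some of the smaller calls. Of each list of other pathway genes up to 4 with the smallest adjusted p in a comparison were named, with each treatment or genotype value of a gene so named also given elsewhere, and Atp6v0a2 and Atp6v0a4 were named to complete the a subunits. Motifs were searched on both strands of RefSeq promoters (GRCm38.p6).

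Same-numbered libraries deviated together for wild-type treatments (correlation of deviations 0.193 to 0.713) but less in knockout (0.00519 to 0.363) and not across genotypes (-0.236 to 0.0342). By that check the numbers pair the treatments in wild type, and in knockout for IL4 and corticosterone against vehicle and for dexamethasone against corticosterone. Alternatives were RLE scaling, no low-count filter, another edgeR fit, DESeq2 1.42.0, fitting only the groups compared, a replicate block, each library left out in turn, and 2 sets of libraries left out. These sets were the libraries high in Arg1, and the wild-type libraries numbered 1, which were the highest in stromal transcripts.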

Additional observations from a re-analysis of the deposited data

Results flagged for a closer look

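In the 3 groups of 4 libraries, 123 sets of values (41 genes in each) were examined for a library far from the other 3, and 8 stood out. Chance flags about 1 set in 20. Knockout vehicle library 3 was low in 5 genes. It read 4693 CPM for Ctsb (nearest library 6291), 2606 for Ctsd (nearest 3609), 1987 for Grn (nearest 2377), 82.41 for Mcoln1 (nearest 94.0) and 550.2 for Atp6ap1 (nearest 602). Knockout vehicle library 2 was high in the V1 subunits Atp6v1b2, at 965 CPM (nearest 782), and Atp6v1c1, at 372.3 CPM (nearest 333). Both libraries are among those high in Arg1. Knockout corticosterone library 3 was low in Ctss, at 2121 CPM (nearest 2338).

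The response of Lipa to dexamethasone differed between the genotypes by a test of the difference itself, with the knockout response lower by -0.4098 on the log2 scale (adjusted p = 0.0355, edgeR's quasi-likelihood test). With each library left out in turn, most of these fits ended the call (adjusted p 0.0584 to 0.145 where it ended).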

How the results depend on the processing

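Of 135 called member values, 61 kept their call under every alternative run for them, 74 lost it under at least 1, and 0 changed direction. Counts below are of the 41 genes, in the order of the report, and are given without the share of all genes called in each run. Without the low-count filter the count was 1 for corticosterone and 7 for dexamethasone in wild type, 7 for corticosterone in knockout, 7 for knockout against wild type with vehicle, and 0 for the dexamethasone interaction and for dexamethasone against corticosterone in knockout. With only the compared groups in the fit, hence fewer libraries, it was 7 for dexamethasone in wild type, 5 for IL4 and 7 for corticosterone in knockout, 4, 0 and 17 for the genotypes with vehicle, IL4 and corticosterone, 0 for the dexamethasone interaction, 0 for dexamethasone against corticosterone in knockout, and 23 for IL4 against corticosterone.

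With the replicate block it was 7 and 18 for corticosterone and dexamethasone in wild type, 17 for corticosterone in knockout, 18 and 24 for IL4 against dexamethasone and corticosterone, and 2 for dexamethasone against corticosterone in knockout, all paired by the check. Where the libraries share only a number, it was 27 for dexamethasone in knockout, 14 for the genotypes with corticosterone and 2 for the dexamethasone interaction. Without the libraries high in Arg1 it was 3 for corticosterone and 11 for dexamethasone in knockout, and 6 for the genotypes with vehicle and 6 with dexamethasone. Without the wild-type libraries numbered 1 it was 1 and 7 for corticosterone and dexamethasone in wild type, 6, 1 and 3 for the genotypes with vehicle, IL4 and corticosterone, and 0 for the dexamethasone interaction. The cause of these shifts was not tested.

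Leaving out each library in turn gave, in wild type, 13 to 22 members for IL4, 1 to 2 for corticosterone and 5 to 9 for dexamethasone, and in knockout 9 to 14, 7 to 11 and 14 to 18. For the genotypes it gave 7 to 12 with vehicle, 1 to 4 with IL4, 4 to 9 with corticosterone and 4 to 10 with dexamethasone. The interactions gave 0 to 1 for IL4, 0 for corticosterone and 0 to 1 for dexamethasone. Dexamethasone against corticosterone gave 0 in wild type and 0 to 1 in knockout, and IL4 gave 10 to 13 against dexamethasone and 10 to 17 against corticosterone. With the bases after the start included, TCACGTG was found in 10 members (29.4%) against 4.29% of genes. The lowest depth, 20162729 counts, left all 41 genes above the low-count filter.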
